A study of Mus musculus with 19 samples.

Results

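The livers of 5 Mat1a knockout mice given S-adenosylmethionine (KO SAMe) were set against those of 8 wild-type mice given placebo (WT placebo), to describe what still differed from wild type after the treatment. These were all 13 arrays with that genotype and treatment in their titles, out of 19 in the series. The other 6 were knockout mice given placebo (KO placebo), which are used here only to place the KO SAMe values. All mice were 10 months old and were given SAMe or placebo for 8 weeks, and total liver RNA was read on single-colour Illumina BeadChips, whose probes sit on beads, with 1 array per animal ID. The titles name the mice as MAT1A KO or MAT1A WT, and all groups were bred in 1 facility. The labels give no SAMe-treated wild-type group, so genotype and treatment cannot be told apart in a difference between KO SAMe and WT placebo livers. The labels name no strain, sex, SAMe dose or route, and do not say which part of the gene is deleted. The labels give no litter or cage, so p-values measure the spread between these animals.

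Mat1a codes for the catalytic subunit of the methionine adenosyltransferases of adult liver, which join methionine to the adenosyl part of ATP to make SAMe, from which most methyltransferases take the methyl group. Methyl transfer leaves S-adenosylhomocysteine and then homocysteine, which is either methylated back to methionine by betaine or folate, or passed through transsulfuration to cysteine, glutathione and taurine. Mice without Mat1a are known for low hepatic SAMe and for fatty liver and liver tumours later in life.

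A gene is described below by its log2 intensity, the background-corrected and normalized brightness of its probe, and a difference of 1 in log2 intensity is a 2-fold difference. Levels of different genes are not compared, since each probe has its own brightness. Changes are KO SAMe minus WT placebo unless another pair is named, and p-values come from limma with Benjamini-Hochberg adjustment over all 10831 features kept, which are genes and probes without a gene name. A gene is called where its adjusted p is under 0.05, and a signed value printed beside an adjusted p is a log2 change. Of these 10831, 1904 were called (17.6%), of which 1028 were higher (9.49% of those tested) and 876 lower (8.09%) in KO SAMe livers. At least 2-fold differences among them numbered 193 (1.78%), of which 116 were higher (1.07%) and 77 lower (0.711%). In 644 genes (5.95%) the call came with no overlap between the 5 KO SAMe and the 8 WT arrays. The share of higher genes among those called was 54.0%, and it was 44.4% and 43.1% where arrays were scaled to their medians in place of quantile normalization, so the split between higher and lower depends on the scaling. Across all genes the median change was -0.00. For the other pairs, 18.5% of genes were called between KO SAMe and KO placebo livers (10.8% higher, 7.69% lower), and 40.2% between KO placebo and WT livers (19.8% higher, 20.4% lower). Fewer genes were thus called between KO SAMe and WT than between KO placebo and WT livers. A smaller count in a list below is therefore not by itself particular to that list. Percentages after list counts are shares called in either direction, to be set beside the 17.6% of all genes. The comparisons of either knockout group with WT livers share the 8 WT arrays, and their values are given side by side only.

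Of 32 listed hepatocyte identity genes 28 were measured, and Alb, which codes for albumin, was at 6.69 ± 0.27 in KO SAMe livers (SD, n = 5) and 6.49 ± 0.47 in WT livers (SD, n = 8). Its change against WT was 0.20, limma adjusted p = 0.55. Alb was lower in KO placebo than in WT livers (-0.60, adjusted p = 0.015). It was higher in KO SAMe than in KO placebo livers (0.80, adjusted p = 0.012). Per array, between 25.5% and 31.8% of 45281 probes were detected. The median raw signal was between 75.1 and 85.8 on 14 arrays and between 93.6 and 99.97 on 5, which were 1 WT array and 4 KO placebo arrays, and no KO SAMe array was in the brighter set. The animal IDs end in a letter whose meaning the labels do not state, which was K for all 8 WT mice, K for 2, I for 2 and G for 1 of the KO SAMe mice, and J for 4 and G for 2 of the KO placebo mice. Arrays of 1 group correlated across genes between 0.966 and 0.990.

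Mat1a stayed low in the treated knockout livers. Its log2 intensity was 9.53, 9.77, 9.75, 9.50 and 9.66 in the 5 KO SAMe livers, between 8.98 and 9.82 with a median of 9.61 in the 6 KO placebo livers, and between 11.93 and 12.33 with a median of 12.10 in the 8 WT livers. Every KO SAMe array lay below every WT array, and Mat1a was 5.56-fold lower than in WT livers (log2 change -2.47, SE 0.12, limma adjusted p = 1.3e-12). The KO SAMe and KO placebo values overlapped, with a log2 change between them of 0.12, adjusted p = 0.57. The 1 probe that reads Mat1a was detected on all arrays, and no source used here says whether it lies in the deleted part, so its remaining signal is no measure of remaining enzyme transcript.

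Among genes that lie beside Mat1a on chromosome 14 a larger share was called than among genes elsewhere, a difference that is given as a description. Of the 100 measured genes nearest to Mat1a, 50 on each side, 32 were called (32%), 12 higher and 20 lower, against 20.4% of the other 186 measured genes of that chromosome and 18.7% of 8230 other named genes. At least 2-fold differences were found in 9 of the 100 (9%), in 4 of the other 186 (2.15%) and in 1.81% of the genes elsewhere. The number called was 20 among arrays with ID letter K alone, where 1000 of all 10831 genes were called. It was between 23 and 33 when 1 array was left out. Mice crossed from a targeted stem cell line can keep that line's chromosome around the target, and its part in these values was not tested. No probe sequences were used here, so it could not be checked whether probes near Mat1a meet sequence differences of such a chromosome. A lower signal of a single probe is therefore uncertain as a lower transcript level.

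The genes near Mat1a named here were mostly lower. Fam25c, 9 measured genes before Mat1a, was at 5.44, 5.23, 5.23, 5.10 and 4.82 in KO SAMe livers, and between 7.46 and 8.45 with a median of 7.95 in WT livers. Psmb5, which codes for a catalytic proteasome subunit and lies 47 measured genes after Mat1a, was at 4.92, 4.82, 4.32, 4.49 and 4.64 in KO SAMe livers, against 6.89 to 8.10 in WT livers. It was detected on 3 of 5 KO SAMe arrays and on all 8 WT arrays. Fam25c and Psmb5 were each read by 1 probe. Neither gene's groups overlapped, and they were 6.9-fold and 6.61-fold lower (adjusted p = 5.7e-10 and 5.6e-11). Cebpe, a transcription factor gene of granulocytes, was detected on 0 of 5 KO SAMe arrays and on all 8 WT arrays, and it was at least 4.73-fold lower (adjusted p = 2.2e-13), while its other probe gave a log2 change of -1.94. Ndrg2 was 4.37-fold lower by its brighter probe (log2 change -2.13, SE 0.17, limma adjusted p = 2.1e-08), and its other probe gave -0.18. Glud1, which codes for glutamate dehydrogenase, the mitochondrial enzyme that releases ammonia from glutamate, was 2.09-fold lower by its brighter probe (adjusted p = 7.6e-07), and its other probes gave -0.55 and -0.02. Fbxo34, a ubiquitin ligase adaptor gene, gave -1.55, and -0.35 and -1.54 by its other probes. Lrtm1, 45 genes before Mat1a, was higher, at 9.09, 7.94, 9.70, 8.34 and 9.18 in KO SAMe livers and between 5.57 and 7.22 with a median of 6.38 in WT livers, a 5.83-fold difference (adjusted p = 5.3e-05), with a log2 change of 2.05 by its other probe. Of these genes Ndrg2 alone was called between KO SAMe and KO placebo livers, with a log2 change of -0.55, adjusted p = 0.041.

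**Figure D1:**
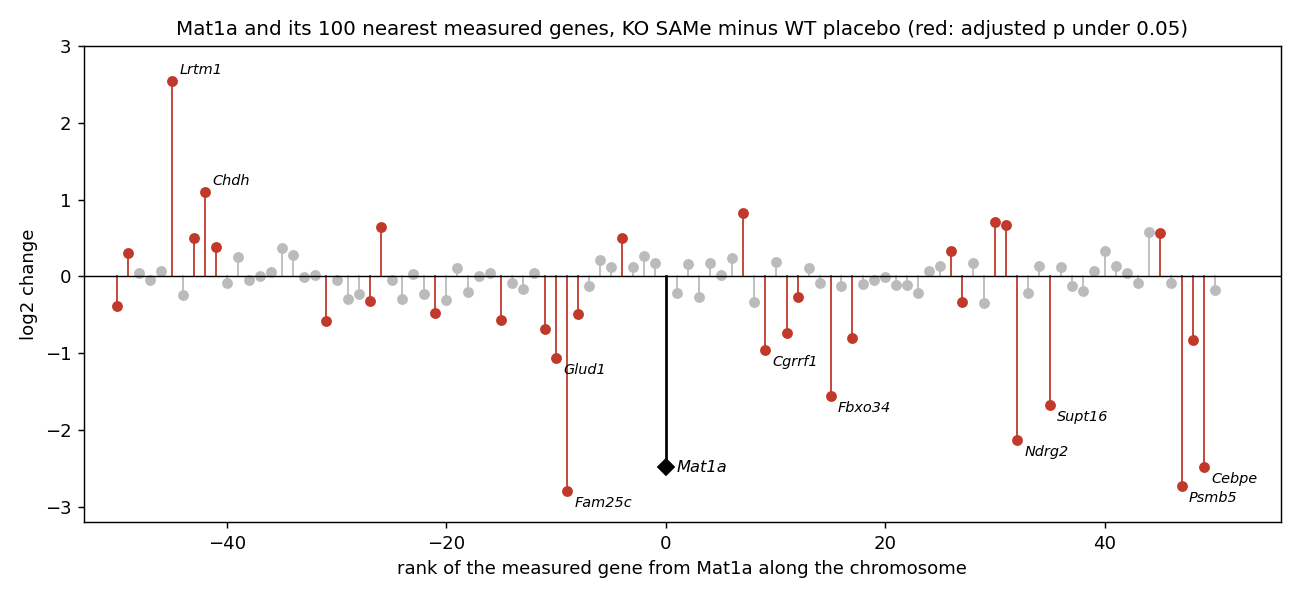
Log2 change between KO SAMe and WT placebo livers for Mat1a (black diamond) and the 100 measured genes nearest to it, in their order along the chromosome. The horizontal axis is the rank of a gene counted from Mat1a and red points are the 32 genes with an adjusted p under 0.05, of which 12 lie above and 20 below 0.

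The largest rise of all was in the Cyp2b genes of the female mouse liver. Cyp2b9 and Cyp2b13 code for cytochromes P450 that oxidize steroids and drugs, and adult male mouse liver keeps both off under the pulses of growth hormone that males secrete. Cyp2b9 was at 9.30, 9.48, 10.20, 10.51 and 8.91 in KO SAMe livers, between 10.27 and 10.996 with a median of 10.46 in KO placebo livers, and between 4.23 and 4.54 with a median of 4.29 in WT livers. It was detected on all 5 KO SAMe arrays and on 1 of 8 WT arrays. The KO SAMe livers were at least 36.1-fold above WT (log2 change 5.34, SE 0.20, limma adjusted p = 3.1e-14), and still below KO placebo livers, with a log2 change of -0.90, adjusted p = 0.0054. Cyp2b13 spread far more among the treated livers, at 7.21, 8.24, 10.005, 10.78 and 6.64 in KO SAMe livers, against 8.24 to 10.26 in KO placebo and 4.13 to 4.26 in WT livers, where no array detected it. Its rise was at least 16.8-fold (adjusted p = 2.2e-06), and KO SAMe and KO placebo livers overlapped, with a log2 change between them of -0.90, adjusted p = 0.24.

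The 2 genes are near copies, and their promoters are printed to show how close they are. Each stretch runs from 250 bases before to 50 after the transcription start in the RefSeq table of assembly GRCm38.p6, at chr7:26173159-26173458 on the plus strand for Cyp2b9 and at chr7:26061245-26061544 on the plus strand for Cyp2b13. Capitals mark the 2 of 300 positions at which they differ.
Cyp2b9: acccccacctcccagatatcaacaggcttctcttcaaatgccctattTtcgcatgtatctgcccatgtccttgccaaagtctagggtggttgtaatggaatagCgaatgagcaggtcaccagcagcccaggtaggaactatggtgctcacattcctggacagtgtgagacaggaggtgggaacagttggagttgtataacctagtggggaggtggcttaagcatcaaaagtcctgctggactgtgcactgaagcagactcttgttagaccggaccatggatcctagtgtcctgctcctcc
Cyp2b13: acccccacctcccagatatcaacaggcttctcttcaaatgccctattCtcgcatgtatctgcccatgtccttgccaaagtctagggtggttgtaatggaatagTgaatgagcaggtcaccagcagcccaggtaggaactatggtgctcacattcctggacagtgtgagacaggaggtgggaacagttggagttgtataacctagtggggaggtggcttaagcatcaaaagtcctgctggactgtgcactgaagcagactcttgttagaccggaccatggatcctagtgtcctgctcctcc
Counted from 1 at the 5′ end and written from Cyp2b9 to Cyp2b13, the differences are T48C and C104T, and 298 positions are identical. No probe sequences were used here, so the signals of these genes may share transcripts and are uncertain as separate values.

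Male-biased liver genes were the other side of the pattern. Of 35 listed genes 26 were measured, of which 12 were lower and 1 higher (50%), with a median change of -0.51. In KO placebo livers 13 were lower and 4 higher than in WT livers. Averaged over the 26 genes, the log2 level was 8.39 to 9.75 across KO SAMe arrays, 9.12 to 10.02 across KO placebo arrays and 9.94 to 10.18 across WT arrays, so that all KO SAMe arrays lay under all WT arrays. The count of called members was between 11 and 14 under all alternatives run, 14 among arrays of letter K.

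Hsd3b5, a steroid dehydrogenase gene of male liver, was at 8.33, 6.45, 4.37, 4.31 and 8.68 in KO SAMe livers, between 4.63 and 8.35 with a median of 4.92 in KO placebo livers, and between 10.62 and 11.06 with a median of 10.75 in WT livers. Replicates 3 and 4 of the KO SAMe group were at the level of background, where the probe was not detected, and replicates 1 and 5 were nearest to the WT values. The gene was 20.6-fold lower than in WT livers (log2 change -4.36, SE 0.65, limma adjusted p = 7.7e-05), and the change against KO placebo livers was 0.997, adjusted p = 0.35. Serpina1e, of the alpha-1-antitrypsin protease inhibitors, whose near-identical relatives make its separate value uncertain, was at 9.76, 9.60, 9.91, 6.86 and 9.80 in KO SAMe livers and between 11.72 and 13.12 with a median of 12.56 in WT livers. The groups did not overlap, replicate 4 lay far under the rest, and the fall was 9.94-fold (adjusted p = 2.5e-05). The detoxifying transferase gene Gstp1 was at 11.01, 9.43, 10.04, 9.81 and 11.26 in KO SAMe livers, against 12.17 to 12.66 in WT livers, 4.37-fold lower by its brightest probe and -0.93 and -1.65 in log2 by the others.

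The major urinary proteins, pheromone carriers that male liver secretes in bulk, were also lower. Mup5 was at 9.15, 7.81, 7.83, 7.30 and 9.15 in KO SAMe livers and between 9.77 and 10.68 with a median of 10.13 in WT livers, which did not overlap (log2 change -1.88, adjusted p = 0.00028), and its other probe gave -0.67. Mup21 (-1.54, adjusted p = 0.00042) and Mup3 (-0.76, adjusted p = 0.0015) fell as well, although Mup transcripts are so alike that probes may read several. Cyp7b1, an oxysterol hydroxylase gene, was at 10.84, 9.73, 9.82, 8.65 and 10.80 in KO SAMe livers, against 10.91 to 11.29 in WT livers, without overlap (log2 change -1.15, adjusted p = 0.0076). C6, of the terminal complement pathway, was 3.66-fold lower (adjusted p = 0.00028), with -1.66 in log2 by its other probe. The exception was C4a, the sex-limited complement protein of male mice, which was higher (0.70, adjusted p = 0.00039, and 0.49 by its other probe), and its probes may also read its near copy C4b. C4b gave 0.73, adjusted p = 0.0049 by its brightest probe but 0.12 and -0.03 by its others, and its call was lost with the mean of its probes.

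Female-biased genes had 13 of 29 listed members measured, of which 4 were higher and none lower (30.8%), with a median change of 0.07. Beside the Cyp2b pair, Cyp17a1, the steroid 17-alpha-hydroxylase, was at 7.31, 8.20, 7.44, 9.36 and 7.77 in KO SAMe livers and between 5.41 and 6.90 with a median of 6.04 in WT livers, without overlap (log2 change 1.89, adjusted p = 0.00045). Ntrk2, a neurotrophin receptor gene, was at 7.15, 6.13, 7.37, 7.43 and 5.36 in KO SAMe livers, against 4.53 to 5.93 in WT livers, where 1 KO SAMe array lay among the WT values (log2 change 1.62, adjusted p = 0.00065). Cyp2b10 (0.65, adjusted p = 0.079), A1bg (0.62, adjusted p = 0.23) and Cyp2a4 (0.02, adjusted p = 0.91) did not pass, and were detected on 0, 1 and 2 of 8 WT arrays in that order. The Y-linked gene Eif2s3y was detected on all 19 arrays, at 4.79 to 6.12 in KO SAMe, 5.05 to 5.38 in KO placebo and 5.33 to 6.40 in WT livers. The lowest signal detected on an array was between 4.43 and 4.55 over the 19 arrays.

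Within the treated group, the 2 mice with ID letter I, replicates 1 and 5, lay nearest to wild type in much of this pattern. Both were above the other 3 KO SAMe livers in 9 of the 12 male-biased genes that fell (75%). Over all 876 genes that were lower in KO SAMe livers both were nearest to WT in 207 (23.6%) and both farthest in 43 (4.91%). Over the 1028 higher genes these numbers were 307 (29.9%) and 48 (4.67%). In Cyp2b13 they were the lowest of the group, at 7.21 and 6.64. No test was made on these 2 and 3 livers, and the part of whatever the letter stands for was not tested.

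**Figure D2:**
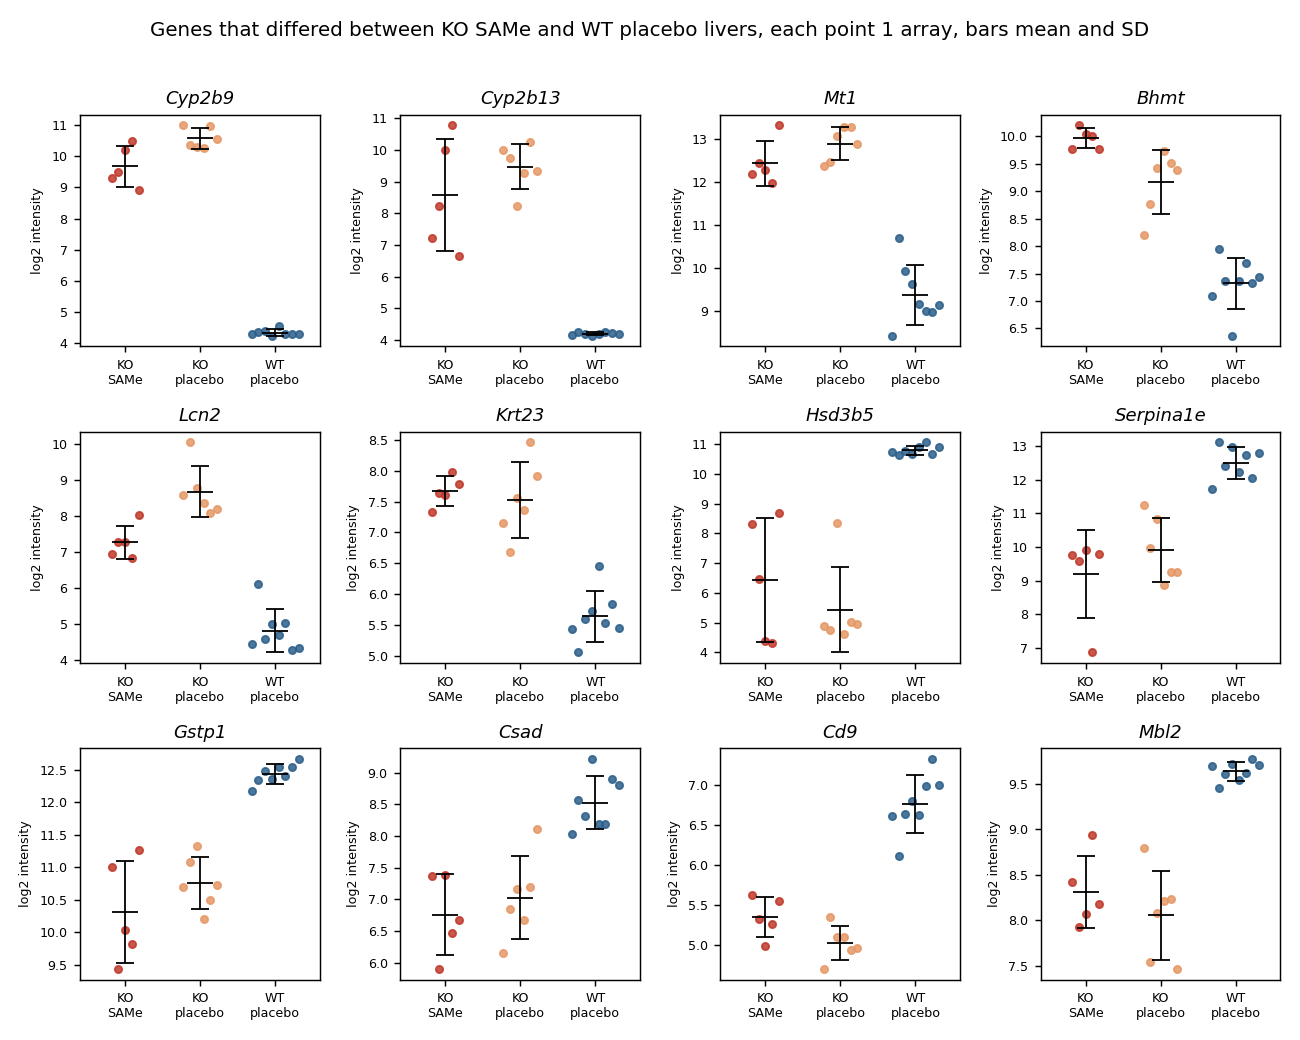
Log2 intensity of 12 genes in each liver, with KO SAMe (n = 5), KO placebo (n = 6) and WT placebo (n = 8) from left to right, the mean as a short line and the SD as bars. In all 12 genes the KO SAMe points lie on 1 side of all WT points, above in Cyp2b9 to Krt23 and below in Hsd3b5 to Mbl2.

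Methionine cycle genes of the betaine route stayed high. Of 26 measured genes of the cycle and of transmethylation, out of 36 listed, 9 were higher and 2 lower (42.3%), with a median change of 0.17 and Mat1a itself among the lower. Scaling to the median of all probes gave 5 higher and 2 lower, and so did the arrays of letter K. Bhmt, the enzyme that methylates homocysteine with betaine, was at 9.78, 10.20, 10.05, 10.02 and 9.78 in KO SAMe livers, between 8.20 and 9.73 with a median of 9.40 in KO placebo livers, and between 6.37 and 7.94 with a median of 7.36 in WT livers. All KO SAMe arrays were above all other arrays of both groups. The gene was 6.25-fold above WT (log2 change 2.64, SE 0.23, limma adjusted p = 6.8e-08), and also above KO placebo livers, with a log2 change of 0.80, adjusted p = 0.027.

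Choline reaches betaine through choline dehydrogenase, coded by Chdh, and the dimethylglycine that Bhmt leaves is oxidized by Dmgdh to sarcosine and by Sardh to glycine. Dmgdh was at 7.61, 7.06, 7.001, 7.20 and 6.83 in KO SAMe livers and between 4.75 and 5.52 with a median of 5.34 in WT livers, a 3.66-fold rise without overlap (adjusted p = 7.8e-08). Chdh rose 2.14-fold (adjusted p = 8.2e-08, with 1.09 in log2 by its other probe), and it is also 42 measured genes before Mat1a. Bhmt2, which methylates homocysteine from S-methylmethionine, rose 1.69-fold (adjusted p = 5.1e-06), and Sardh 1.83-fold (adjusted p = 0.0026). In KO placebo livers the log2 changes from WT were 1.65 for Dmgdh, 1.15 for Chdh, 0.71 for Bhmt2 and 1.21 for Sardh, and none of the 4 was called between KO SAMe and KO placebo livers, with adjusted p between 0.26 and 0.81. Mat2b, the regulatory subunit of the methionine adenosyltransferase made outside adult liver, was lower (log2 change -0.74, adjusted p = 0.0028), with -0.80 and 0.03 by its other probes. Gnmt, the glycine methyltransferase that disposes of excess SAMe, gave -0.02, adjusted p = 0.96, with -0.42 and -0.33 by its other probes, and Ahcy, which cleaves S-adenosylhomocysteine, gave 0.00, adjusted p = 0.99, with -0.09 by its other probe.

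Phosphatidylcholine synthesis draws on SAMe through Pemt, which methylates phosphatidylethanolamine. Of 10 measured genes, 3 were higher and none lower (30%), and leaving out 1 array left 1 called without KO SAMe replicate 2 or KO SAMe replicate 4. Selenoi, which makes phosphatidylethanolamine, was higher (log2 change 0.54, adjusted p = 0.0023) without overlap. Pemt was at 10.99, 11.21, 11.28, 11.32 and 10.98 in KO SAMe livers, between 10.46 and 10.85 with a median of 10.72 in KO placebo livers, and between 10.49 and 11.14 with a median of 10.79 in WT livers, which overlapped. Its log2 change was 0.36, adjusted p = 0.02 against WT and 0.45, adjusted p = 0.0072 against KO placebo livers, and the call against WT was lost with an adjusted p of 0.052 without KO SAMe replicate 2, 0.061 without KO SAMe replicate 3 and 0.058 without KO SAMe replicate 4. Pcyt1a, which codes for the enzyme that sets the pace of the alternative CDP-choline route, gave 0.23, adjusted p = 0.44.

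Of 15 measured transsulfuration and taurine genes 6 were higher and 1 lower (46.7%). Csad, which decarboxylates cysteine sulfinate on the way to taurine, was at 7.37, 5.90, 7.39, 6.46 and 6.67 in KO SAMe livers and between 8.03 and 9.22 with a median of 8.44 in WT livers, 3.41-fold lower without overlap (adjusted p = 0.00016), and its other probe gave -1.67. Several genes of sulfide and cysteine-sulfur disposal were higher. Ethe1, a mitochondrial persulfide dioxygenase, gave a log2 change of 1.03, adjusted p = 0.0047, Mpst, a mercaptopyruvate sulfurtransferase, 0.65, adjusted p = 0.0041, and Got2, the mitochondrial aspartate aminotransferase, 0.52, adjusted p = 0.0048. Of these Mpst lost its call among arrays of letter K and with the letter as a term, and Got2 among arrays of letter K and under 1 scaling. The entry enzymes gave 0.23, adjusted p = 0.54 for Cbs, which condenses homocysteine with serine, and 0.30, adjusted p = 0.51 for Cth, which releases cysteine. Cth was above WT in KO placebo livers (log2 change 0.97, adjusted p = 0.0048).

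Several genes of folate and glycine were higher, and fewer were lower. Of 17 measured, 5 were higher and 2 lower (41.2%), and leaving out 1 array left 4 called without KO SAMe replicate 2 or KO SAMe replicate 3. Shmt2, the mitochondrial serine hydroxymethyltransferase, was at 8.08, 8.34, 7.76, 7.63 and 7.74 in KO SAMe livers and between 6.44 and 7.51 with a median of 6.88 in WT livers, without overlap (log2 change 1.02, adjusted p = 0.0002). Aldh1l1, which burns off formyl groups from folate, gave 0.83, adjusted p = 0.00032, but its other probe gave 0.05. Gldc, of the glycine cleavage system, gave 0.91, adjusted p = 0.0011, with 1.01 by its other probe. Shmt1, the cytosolic serine hydroxymethyltransferase (0.16, adjusted p = 0.43), and the folate gene Mthfd1 (0.16, adjusted p = 0.3) were not called.

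**Figure D3:**
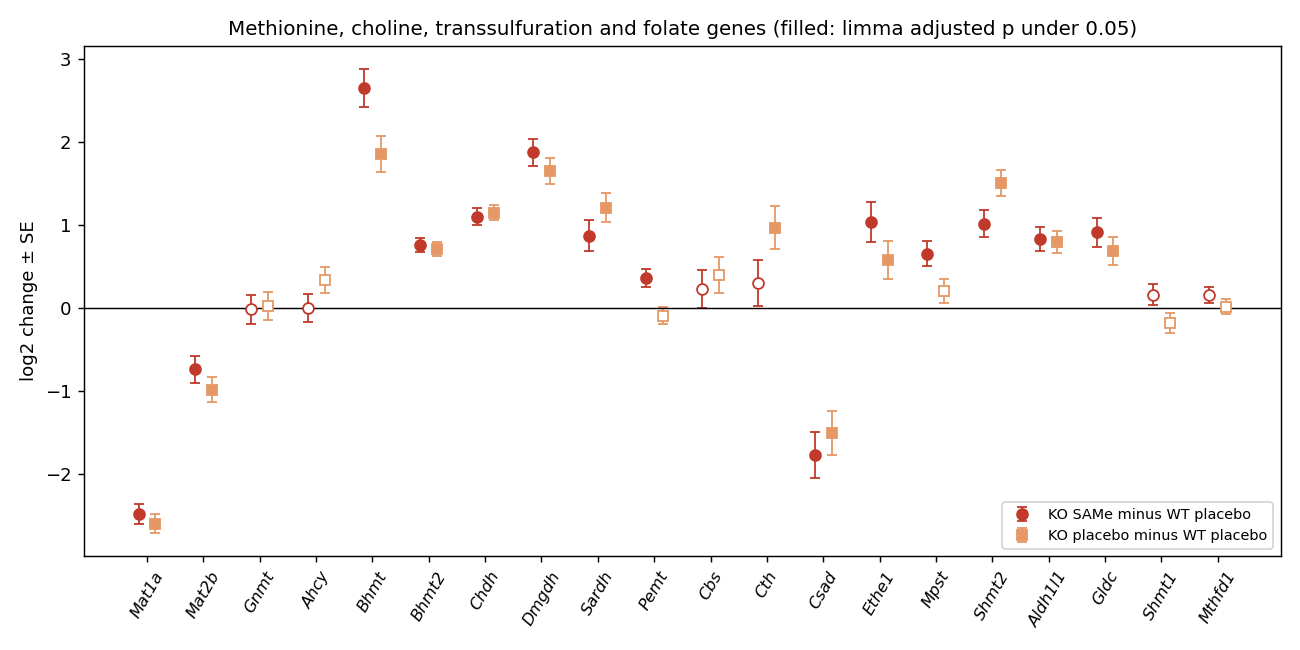
Log2 change with its standard error for 20 genes of the methionine cycle, choline oxidation, transsulfuration and folate, for KO SAMe minus WT placebo (circles) and KO placebo minus WT placebo (squares), filled where the adjusted p was under 0.05. Bhmt, at 2.64, is the highest and Mat1a, at -2.47, the lowest of the KO SAMe points shown.

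Cholesterol synthesis genes were raised as a group. Of 18 measured genes of the pathway and of its regulator SREBP2, out of 25 listed, 10 were higher and none lower (55.6%), with a median change of 0.52. In KO placebo livers 9 were higher than WT, with a median change of 0.35. The count was 9 or 10 when 1 array was left out and 10 under both median scalings, but 4 among arrays of letter K. That fit holds 2 KO SAMe arrays and called 1000 of all 10831 genes. Mvd, which makes isopentenyl diphosphate, was at 7.34, 7.17, 6.97, 6.66 and 6.61 in KO SAMe livers, between 5.50 and 6.73 with a median of 6.31 in KO placebo livers, and between 5.28 and 6.21 with a median of 5.59 in WT livers. All KO SAMe arrays were above all WT arrays, the KO placebo arrays overlapped both, and the gene rose 2.5-fold against WT (log2 change 1.32, SE 0.19, limma adjusted p = 4.9e-05) and by a log2 change of 0.72, adjusted p = 0.016 against KO placebo livers. Mvk, mevalonate kinase, gave 0.73, adjusted p = 0.00035 against WT and 0.41, adjusted p = 0.033 against KO placebo livers.

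Further members that passed against WT were Dhcr7, the last step of the pathway (0.88, adjusted p = 0.00055), Msmo1, a sterol methyl oxidase (0.74, adjusted p = 0.0012), Idi1, the isopentenyl diphosphate isomerase (0.57, adjusted p = 0.0051), and Sqle, squalene epoxidase (0.74, adjusted p = 0.0074, and 0.30 by its other probe). Of these Idi1 and Sqle lost the call among arrays of letter K and with the letter as a term, and Sqle also with the mean of its probes. Srebf2, which codes for SREBP2 itself, gave 0.47, adjusted p = 0.011, with 0.25 by its other probe, and lost the call with an adjusted p of 0.051 without KO SAMe replicate 2. Cyp51, lanosterol demethylase, gave 0.45, adjusted p = 0.11 and was not called. In 4 of the 10 genes the 2 letter I livers were both the farthest from WT, and in none were both the nearest.

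Of the 10 higher genes 8 had promoters in the RefSeq table, with 10 promoters in all, and 8 of these 10 promoters (80%) hold the letters CCAAT on either strand, against 37.4% of all 32851 promoters of 300 bases in that table. Over the 15 measured genes of the list with promoters there, called or not, 15 of 18 promoters (83.3%) hold them, so the share is not particular to the higher genes. The sterol regulatory element through which SREBP2 is known to act, searched in 1 form on both strands, was in 0 of the 18 and in 0.234% of all promoters, which says only that this form is not in these windows. The box is known to be read by the factor NF-Y, a partner of SREBP2. Mvk is shown because it holds the most CCAAT boxes of these genes, 5, as do at least that many in 0.271% of all promoters. The stretch is chr5:114444019-114444318 on the plus strand of GRCm38.p6, with the boxes in capitals.
Mvk: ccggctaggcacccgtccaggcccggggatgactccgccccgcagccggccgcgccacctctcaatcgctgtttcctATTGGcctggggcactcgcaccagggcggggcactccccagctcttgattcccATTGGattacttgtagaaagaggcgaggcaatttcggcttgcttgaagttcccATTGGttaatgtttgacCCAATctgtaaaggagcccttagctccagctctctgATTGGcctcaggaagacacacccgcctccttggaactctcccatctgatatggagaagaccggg
A match is a description of the letters and shows no binding.

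Genes of amino acid breakdown that were called were higher with 1 exception. Of 36 measured genes 13 were higher and 1 lower (38.9%), against 9 higher and 1 lower when KO SAMe livers were set against KO placebo livers. Leaving out 1 array left 9 called without KO SAMe replicate 3, and the median scalings gave 7 higher and 0 lower, or 7 and 1. Gpt2, the mitochondrial alanine aminotransferase, was at 10.98, 11.59, 11.17, 11.05 and 11.24 in KO SAMe livers, between 10.07 and 10.78 with a median of 10.56 in KO placebo livers, and between 10.03 and 10.80 with a median of 10.55 in WT livers. The treated livers were above both placebo groups without overlap, with log2 changes of 0.76, adjusted p = 0.00088 against WT and 0.70, adjusted p = 0.0036 against KO placebo livers. Agxt, which turns glyoxylate into glycine, was also above both, with some overlap, by 0.74, adjusted p = 0.0029 against WT and 0.65, adjusted p = 0.012 against KO placebo livers. Aldh4a1, of proline breakdown, gave 0.66, adjusted p = 2.7e-05, Ivd, of leucine breakdown, 0.92, adjusted p = 0.00085, Gpt, the cytosolic alanine aminotransferase, 0.65, adjusted p = 0.0017, and Hal, histidine ammonia-lyase, 0.57, adjusted p = 0.01. Other probes gave 0.51 for Aldh4a1 and 0.34 for Hal. Mccc2, a subunit of methylcrotonyl-CoA carboxylase in the same leucine pathway, was the lower one (-0.51, adjusted p = 0.011), also against KO placebo livers (-0.75, adjusted p = 0.0014).

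A set of genes stood apart in KO SAMe livers from both placebo groups, so that the treated livers lay beyond, not between, the 2 others. These genes were picked by this pattern, and both comparisons share the KO SAMe arrays, so their values here and below are a description. The set with brighter raw signal held 4 KO placebo arrays and no KO SAMe array, and its part in these genes was not tested. Auh, a leucine-breakdown hydratase that also binds AU-rich RNA, was at 7.43, 7.34, 7.51, 7.85 and 7.16 in KO SAMe livers, between 5.99 and 7.18 with a median of 6.56 in KO placebo livers, and between 6.14 and 6.76 with a median of 6.46 in WT livers. All KO SAMe arrays were above all WT arrays, and 1, at 7.16, was under the highest KO placebo array. Auh rose against WT (0.98, adjusted p = 0.00025) and against KO placebo livers (0.92, adjusted p = 0.0012), while the change between the placebo groups was 0.06, adjusted p = 0.8. Vnn3, a pantetheinase that frees cysteamine, gave 0.71, adjusted p = 0.00068 against WT, with 0.75 by its other probe, and 0.74, adjusted p = 0.0013 against KO placebo livers. Higher against both, by log2 changes against WT between 0.51 and 0.72, were also B3gntl1, Thnsl1, Chid1, Pold4, Il17rb and Mrap, with adjusted p from 7.5e-06 for B3gntl1 to 0.0013 for Mrap. Their changes against KO placebo livers were 0.55 for B3gntl1, 0.67 for Thnsl1, 0.69 for Chid1, 0.78 for Pold4, 0.49 for Il17rb and 0.62 for Mrap. Other probes gave 0.14 for Thnsl1, 0.47 for Chid1 and 0.65 for Pold4 against WT.

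The genes that were lower than in both placebo groups included a mitochondrial carrier, an enzyme of glucose release and a clock repressor. Slc25a25, a mitochondrial carrier of ATP-magnesium, was at 5.77, 7.25, 7.58, 6.66 and 7.09 in KO SAMe livers, between 7.93 and 9.44 with a median of 8.19 in KO placebo livers, and between 8.25 and 9.51 with a median of 8.44 in WT livers. Every treated liver was under every other liver, and the fall was 3.34-fold against WT (adjusted p = 0.00028) and a log2 change of -1.63, adjusted p = 0.0013 against KO placebo livers. Tob1, an antiproliferative gene of mRNA decay, gave -0.95, adjusted p = 0.0002 against WT and -0.90, adjusted p = 0.00097 against KO placebo livers. G6pc, the glucose-6-phosphatase that lets glucose out of the liver, was at 9.82, 10.29, 10.44, 9.94 and 9.11 in KO SAMe livers, between 10.32 and 11.55 with a median of 10.85 in KO placebo livers, and between 10.83 and 11.56 with a median of 11.11 in WT livers, and fell 2.39-fold against WT (adjusted p = 0.00019) and by a log2 change of -0.94, adjusted p = 0.0047 against KO placebo livers. Ces3a, a carboxylesterase, gave -0.88, adjusted p = 0.0087 against WT and -1.19, adjusted p = 0.0018 against KO placebo livers. Kcmf1 was lower as well (-0.45, adjusted p = 0.0039 against WT). Atxn7 was detected on 0 of 5 KO SAMe and 7 of 8 WT arrays and was at least 1.17-fold lower than WT (adjusted p = 0.0084).

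Bhlhe40, a repressor of the circadian clock, belongs to the same set. It was at 6.16, 5.59, 6.44, 5.58 and 6.01 in KO SAMe livers and between 7.01 and 8.11 with a median of 7.44 in KO placebo livers. In WT livers it fell in 2 clusters, with replicates 1 to 3 at 8.30, 8.25 and 8.32 and the other 5 between 6.58 and 6.81. Every KO SAMe array was under every array of both placebo groups, with log2 changes of -1.36, adjusted p = 0.0039 against WT and -1.57, adjusted p = 0.0025 against KO placebo livers. In Dbp, a clock output gene, the WT replicates that stood high in Bhlhe40 were at 9.45, 10.31 and 9.66, and the other 5 between 9.75 and 10.43. Clock genes as a list had 15 measured members, 2 higher and 3 lower (33.3%), and leaving out 1 array left 3 called without KO SAMe replicate 2 or KO SAMe replicate 3. Dbp was at 9.48, 9.07, 8.96, 8.48 and 9.91 in KO SAMe livers and fell by a log2 change of 0.83 (adjusted p = 0.012). Per1 gave -0.49, adjusted p = 0.16 against WT and -1.02, adjusted p = 0.0066 against KO placebo livers, and Per2 0.01, adjusted p = 0.98 and -0.87, adjusted p = 0.0024. The labels do not state the hour of death, so time of day cannot be told apart from treatment in these genes.

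**Figure D4:**
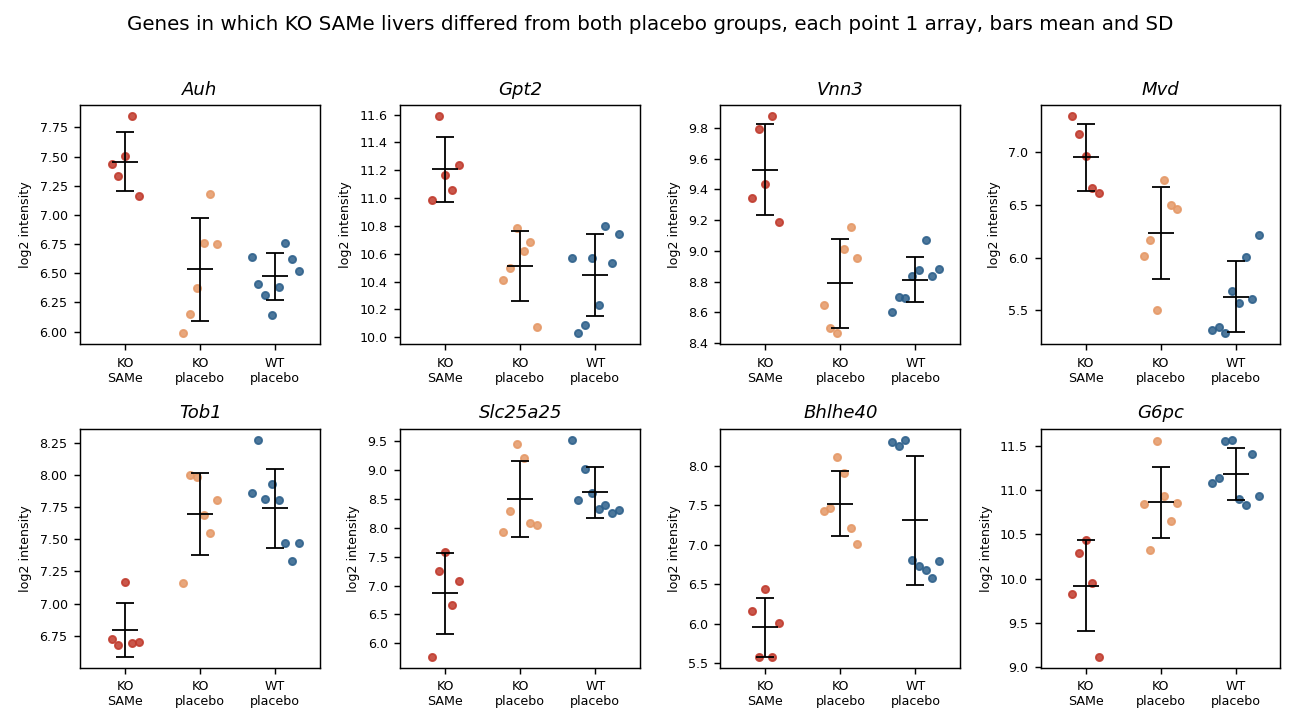
Log2 intensity of 8 genes in each liver, with KO SAMe (n = 5), KO placebo (n = 6) and WT placebo (n = 8) from left to right, the mean as a short line and the SD as bars. KO SAMe points lie above those of both other groups in Gpt2 and Vnn3 and below them in Slc25a25 and Bhlhe40, and the 3 high WT points of Bhlhe40 are replicates 1 to 3.

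Other genes lay between the 2 placebo groups, with part of the difference from WT remaining. Tk1, thymidine kinase of dividing cells, was at 6.82, 6.61, 6.45, 6.85 and 6.57 in KO SAMe livers, between 5.45 and 6.21 with a median of 5.79 in KO placebo livers, and between 7.66 and 8.21 with a median of 7.78 in WT livers, -1.18, adjusted p = 1.7e-06 against WT and 0.84, adjusted p = 0.00044 against KO placebo livers, though its other probes gave -0.39 and -0.16. Rpa3, a subunit of the protein that coats single-stranded DNA, gave -1.14, adjusted p = 1.9e-05 against WT and 0.87, adjusted p = 0.001 against KO placebo livers. Dnajc12, Ccdc58, Zfp277, St7l, Prepl and Ttc1 were likewise lower than WT, by log2 changes between -0.75 and -0.46, and higher than in KO placebo livers, by changes between 0.53 and 0.86. The other probes gave 0.20 for Prepl, -0.17 for Ccdc58, -0.35 for Dnajc12, -0.78 for Zfp277 and -0.59 for St7l against WT. On the higher side were Lcn2, Cyp2b9, Krt8, Col4a1, Nudt18, Pes1, Them7 and Tfcp2l1, which were under KO placebo livers by changes between -1.40 for Lcn2 and -0.47 for Tfcp2l1. Against WT, Lcn2, Krt8, Col4a1, Nudt18, Pes1 and Them7 were higher by log2 changes between 0.72 for Col4a1 and 2.46 for Lcn2. Tfcp2l1 and Cyp2b9 were each detected on 1 of 8 WT arrays, and Tfcp2l1 was at least 1.26-fold higher (adjusted p = 0.0035). The pattern chose these genes and the comparisons share the KO SAMe arrays, so the values are a description.

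Mt1 and Slc39a4 stayed high. Of 27 measured genes of metallothioneins, zinc and iron, 6 were higher and none lower (22.2%), with 13 higher and 3 lower in KO placebo against WT livers. Of all genes, 17.6% were called between KO SAMe and WT livers and 40.2% between KO placebo and WT livers. The higher genes were 9.49% and 19.8% in the same order. Mt1, a cysteine-rich protein that binds zinc and copper, was at 12.19, 12.45, 12.29, 11.98 and 13.33 in KO SAMe livers, between 12.39 and 13.28 with a median of 12.98 in KO placebo livers, and between 8.42 and 10.71 with a median of 9.15 in WT livers. No KO SAMe array came down to the highest WT array, and the rise was 8.43-fold (log2 change 3.08, SE 0.29, limma adjusted p = 2.1e-07). Mt2 was detected on 4 of 5 KO SAMe and 3 of 8 WT arrays and gave 0.57, adjusted p = 0.21. Slc39a4, the zinc importer ZIP4, was at 8.79, 9.09, 8.64, 8.78 and 8.65 in KO SAMe livers and between 5.94 and 7.49 with a median of 6.66 in WT livers, 4.34-fold higher without overlap (adjusted p = 3.4e-07). Hamp2, a hepcidin gene, was at 9.38, 11.17, 11.21, 12.48 and 8.24 in KO SAMe livers, against 7.16 to 9.40 in WT livers, which overlapped (2.13, adjusted p = 0.01).

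The promoter of Mt1 is shown because metal-responsive transcription runs through short elements close to its start. It lies at chr8:94178839-94179138 on the plus strand of GRCm38.p6, and capitals mark the letters TGCACNC or TGCGCNC on either strand.
Mt1: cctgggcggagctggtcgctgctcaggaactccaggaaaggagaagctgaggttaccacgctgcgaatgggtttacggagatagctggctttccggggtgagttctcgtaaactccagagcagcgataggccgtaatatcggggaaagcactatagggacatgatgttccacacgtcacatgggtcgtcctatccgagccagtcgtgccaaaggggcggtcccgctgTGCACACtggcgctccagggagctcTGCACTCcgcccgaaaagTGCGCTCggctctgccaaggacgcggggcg
They occur 3 times in Mt1 and 4 times in Mt2, and 25.7% of all promoters in the table hold at least 1 and 1.97% at least 3.

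Some acute phase genes stayed above wild type. Of 30 measured genes, Mt1 among them, 6 were higher and none lower (20%), against 19 higher in KO placebo compared with WT livers. Of all genes, 17.6% were called and 9.49% were higher in KO SAMe against WT livers. In KO placebo against WT livers 19.8% of all genes were higher. Leaving out 1 array left 3 called without KO SAMe replicate 5. Lcn2, lipocalin 2, which binds bacterial iron carriers, was at 6.96, 7.28, 7.27, 6.83 and 8.02 in KO SAMe livers, between 8.09 and 10.05 with a median of 8.47 in KO placebo livers, and between 4.27 and 6.12 with a median of 4.64 in WT livers. The 3 groups did not overlap, and Lcn2 was 5.49-fold above WT (adjusted p = 9.5e-06). Saa1, serum amyloid A, was at 11.77, 9.65, 10.20, 9.06 and 11.80 in KO SAMe livers, against 6.96 to 10.20 in WT livers, which overlapped (2.06, adjusted p = 0.0065), with 1.42 by its other probe, and it was not called among arrays of letter K. Orm2, an acid glycoprotein, gave 1.16, adjusted p = 0.019, a call lost with an adjusted p of 0.055 without KO SAMe replicate 5.

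ATF4 target genes and endoplasmic reticulum chaperones were called in 6 of 32 measured genes as higher and in 3 as lower (28.1%), but 2 as higher and 3 as lower where arrays were scaled to the median of all probes, and leaving out 1 array left 4 called without KO SAMe replicate 2, 5 called without KO SAMe replicate 3 or WT placebo replicate 7 and 3 called without KO SAMe replicate 4. Asns, asparagine synthetase, was at 6.93, 6.56, 6.37, 4.29 and 7.01 in KO SAMe livers, between 6.24 and 8.52 with a median of 7.15 in KO placebo livers, and between 4.21 and 4.41 with a median of 4.27 in WT livers. Replicate 4 lay at background with the WT arrays and the other 4 treated livers lay above all WT arrays. The rise was at least 3.31-fold (adjusted p = 0.00082), with a log2 change of 1.04 by its other probe, and was not called among arrays of letter K, which hold replicate 4. Nupr1, a stress-induced chromatin protein, gave 1.003, adjusted p = 0.0016, and Cebpg, a dimer partner of ATF4, was lower at -0.62, adjusted p = 0.00072. Ddit3, the factor CHOP, gave 0.51, adjusted p = 0.097, with 0.07 by its other probe, and Hspa5, the chaperone BiP, 0.20, adjusted p = 0.24. Heat shock chaperones had 2 of 24 measured genes higher and none lower (8.33%), against 14 higher in KO placebo compared with WT livers. Of all genes, 9.49% were higher in KO SAMe and 19.8% in KO placebo livers, each against WT. Leaving out 1 array left 1 called without KO SAMe replicate 2, WT placebo replicate 1 or WT placebo replicate 3 and 0 called without KO SAMe replicate 3 or KO SAMe replicate 4. Hsph1 gave 0.44, adjusted p = 0.23 against WT and -1.55, adjusted p = 0.0005 against KO placebo livers, and Hspb1 -0.29, adjusted p = 0.44 and -1.64, adjusted p = 0.00036.

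The Asns promoter is printed for the element through which ATF4 is known to act on amino acid shortage. It lies at chr6:7693160-7693459 on the minus strand of GRCm38.p6, with the letters TGATGNAA, found on either strand, in capitals.
Asns: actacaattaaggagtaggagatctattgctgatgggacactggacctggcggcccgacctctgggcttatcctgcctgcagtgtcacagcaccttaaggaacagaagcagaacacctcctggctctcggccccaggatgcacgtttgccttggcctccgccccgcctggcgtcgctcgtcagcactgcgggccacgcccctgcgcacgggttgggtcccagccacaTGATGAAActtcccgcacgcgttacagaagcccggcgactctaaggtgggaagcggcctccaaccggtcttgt
The same letters occur once in the promoter of Nupr1 and in 3.97% of all promoters.

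Glutathione transferases and targets of NRF2, the sensor of oxidative stress, had 43 measured genes, of which 9 were higher and 2 lower (25.6%). The list leaves out Gstp1, described above among male-biased genes, which was 4.37-fold lower by its brightest probe (adjusted p = 2.4e-06). Gstm2 was at 11.46, 10.95, 11.52, 11.14 and 11.14 in KO SAMe livers and between 9.45 and 10.45 with a median of 10.13 in WT livers, 2.26-fold higher without overlap (adjusted p = 1.7e-05), and 1.11 and 1.13 in log2 by its other probes, which may also read close relatives. Nqo1, a quinone reductase, gave 0.83, adjusted p = 9.6e-05 against WT and 0.40, adjusted p = 0.041 against KO placebo livers. Gstt3 (1.04, adjusted p = 0.0011), Ggct, which degrades gamma-glutamyl peptides (0.55, adjusted p = 0.0013), and Gstk1 (0.55, adjusted p = 0.0044) were higher, and Gsto1 was lower (-0.62, adjusted p = 0.0008). Other probes gave 0.20 for Ggct and 0.41 for Gstk1. Gclm, the regulatory subunit for glutathione synthesis, gave -0.25, adjusted p = 0.24. Among other drug-handling genes 7 of 46 were higher and 6 lower (28.3%), with 7 called without KO SAMe replicate 2 and 8 called without KO SAMe replicate 3 when 1 array was left out and 3 higher and 8 lower under scaling to the median of all probes. Fmo1, a flavin monooxygenase, gave 0.76, adjusted p = 0.0015 with 0.34 by its other probe, and Cyp2a12 gave 0.56, adjusted p = 0.00055. Both are among the higher members, while changes over the list of drug-handling genes ran from -2.01 to 0.76.

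The lists of fatty acid synthesis, fatty acid oxidation and lipid droplet genes were called in 20.8% to 22.9% of their members, near the 17.6% of all genes. Single genes are described here. Lpl, lipoprotein lipase, which adult hepatocytes normally keep low, was at 8.74, 9.54, 10.08, 9.66 and 8.77 in KO SAMe livers, between 7.55 and 9.40 with a median of 8.72 in KO placebo livers, and between 6.58 and 7.62 with a median of 7.11 in WT livers. Every KO SAMe array was above every WT array, with a 4.79-fold difference of the means (adjusted p = 5.9e-06), and the change against KO placebo livers was 0.77, adjusted p = 0.066. Fitm1, which helps to form lipid droplets, was 2.34-fold higher without overlap (adjusted p = 2.5e-05). Cidec, a droplet-fusion protein, was detected on 4 of 5 KO SAMe and no WT arrays, at least 1.28-fold higher (adjusted p = 0.0075) and under KO placebo livers by a log2 change of -1.06, adjusted p = 0.00044, a call against WT that was lost among arrays of letter K. Angptl8, an insulin-induced inhibitor of lipoprotein lipase, was lower than WT (-1.37, adjusted p = 0.015) and higher than in KO placebo livers (1.17, adjusted p = 0.044). The list of droplet, lipolysis and uptake genes had 24 measured members, 4 higher and 1 lower (20.8%).

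Ppara, the receptor that turns on fatty acid oxidation, was higher (0.67, adjusted p = 0.00047) without overlap, as was its coactivator gene Ppargc1a (0.91, adjusted p = 0.0056). Its targets went both ways, with Pdk4, which blocks pyruvate oxidation, higher (0.93, adjusted p = 0.00096), and the acyl-CoA thioesterase Acot1 lower, at 6.87, 6.17, 6.31, 7.08 and 6.71 in KO SAMe livers and between 7.39 and 8.94 with a median of 8.43 in WT livers (log2 change -1.75, adjusted p = 2.6e-05, -0.68 by its other probe). Pex11a, of peroxisome division, was lower too (-0.70, adjusted p = 0.003, -0.11, -0.99 and -0.64 by its other probes). Over 35 measured genes of oxidation 6 were higher and 2 lower (22.9%), with 5 called without KO SAMe replicate 3 or WT placebo replicate 6 when 1 array was left out. The median change was 0.02 and turned to -0.09 and -0.10 under the median scalings. Synthesis genes had 4 of 28 higher and 2 lower (21.4%). Elovl1, of very long fatty acids, gave 0.96, adjusted p = 0.0014, with 0.86 and 0.19 by its other probes, and Fads2, a desaturase, 0.87, adjusted p = 0.0033 with 0.28 by its other probe. Scd1, the main liver desaturase, gave -0.11, adjusted p = 0.84, and Srebf1 0.18, adjusted p = 0.64.

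Apolipoprotein genes were lower where they differed, in 5 of 21 measured and with none higher (23.8%), and their median change was -0.03. Of all genes, 17.6% were called and 8.09% were lower. Leaving out 1 array left 3 called without KO SAMe replicate 2, WT placebo replicate 3, WT placebo replicate 4 or WT placebo replicate 5. Apoa5, which lowers plasma triglyceride, fell by a log2 change of 0.63 (adjusted p = 0.00051) without overlap. Apoc2, the cofactor of lipoprotein lipase, gave -1.25, adjusted p = 0.0021, but 0.11 by its other probe. Sort1, a sorting receptor of VLDL export, gave -0.95, adjusted p = 0.012, but -0.98 and -0.04 by its other probes.

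Bile acid genes had 5 of 25 measured members higher and 2 lower (28.0%), but 3 higher and 4 lower with arrays scaled to the median of all probes. Slc51b, a subunit of the basolateral bile acid exporter, was at 6.23, 5.47, 5.61, 5.95 and 6.47 in KO SAMe livers, between 4.45 and 6.15 with a median of 5.10 in KO placebo livers, and between 4.26 and 4.98 with a median of 4.63 in WT livers, 1.30, adjusted p = 0.00043 against WT without overlap and 0.77, adjusted p = 0.03 against KO placebo livers. Cyp8b1, the sterol 12-alpha-hydroxylase that sets the share of cholic acid, was at 12.27, 12.47, 11.90, 12.06 and 11.57 in KO SAMe livers, against 9.46 to 11.60 in WT livers, which overlapped (1.14, adjusted p = 0.0027). Acox2, a peroxisomal oxidase of the side chain, gave 0.86, adjusted p = 0.0016. Cyp7a1, the rate-limiting enzyme of bile acid synthesis, gave 0.40, adjusted p = 0.31 against WT and 1.03, adjusted p = 0.012 against KO placebo livers.

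Complement and coagulation genes were more often lower, in 7 of 39 measured against 2 higher (23.1%). Of all genes, 17.6% were called and 8.09% were lower. Mbl2, a mannose-binding lectin that starts complement, was at 8.43, 7.93, 8.07, 8.93 and 8.18 in KO SAMe livers, between 7.46 and 8.79 with a median of 8.15 in KO placebo livers, and between 9.45 and 9.77 with a median of 9.66 in WT livers. No KO SAMe array reached the lowest WT array, a 2.52-fold fall (adjusted p = 2.5e-05). C9, of the membrane attack complex, was 2.21-fold lower by its brightest probe (adjusted p = 0.00013), with 0.10 and -1.01 by its others. F11, coagulation factor XI, gave -0.63, adjusted p = 0.0014, with -0.71 by its other probe, and Fcna, a ficolin, -0.58, adjusted p = 0.0036.

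Among ammonia genes, Rhbg, an ammonia channel of pericentral hepatocytes, was at 5.83, 5.92, 6.49, 6.23 and 5.85 in KO SAMe livers and between 4.40 and 5.07 with a median of 4.53 in WT livers, 2.66-fold higher without overlap (adjusted p = 7.5e-06). The urea cycle enzymes Cps1 (-0.07, adjusted p = 0.78), Ass1 (0.14, adjusted p = 0.6) and Otc (0.14, adjusted p = 0.7) were not called. Genes of glucose metabolism, beside G6pc, had 4 of 25 higher and 3 lower (28.0%), with 2 called without KO SAMe replicate 2 and 4 called without KO SAMe replicate 3 when 1 array was left out. Ppp1r3g, a glycogen-targeting phosphatase subunit that rises with feeding, was at 6.13, 4.82, 4.35, 4.55 and 5.29 in KO SAMe livers, between 4.80 and 9.18 with a median of 6.26 in KO placebo livers, and between 6.04 and 9.74 with a median of 8.97 in WT livers. 1 WT array, at 6.04, lay among the KO SAMe values, and the change was -3.41, adjusted p = 0.0012, with -0.46 by its other probe. Dusp1, an immediate early phosphatase, gave -2.14, adjusted p = 0.0042, and Pck1, of gluconeogenesis, -0.26, adjusted p = 0.52.

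Some keratin and tumour-associated genes remained above wild type. Of 12 measured cholangiocyte and progenitor markers 4 were higher and none lower (33.3%), a count between 3 and 5 under all alternatives run. Krt23 was at 7.33, 7.64, 7.61, 7.98 and 7.78 in KO SAMe livers, between 6.68 and 8.46 with a median of 7.47 in KO placebo livers, and between 5.06 and 6.46 with a median of 5.57 in WT livers, 4.08-fold higher without overlap with WT (adjusted p = 3.6e-06). Krt18 (0.97, adjusted p = 3e-05) and Krt8 (0.85, adjusted p = 0.0022), the keratin pair that hepatocytes also make, rose, and Krt8 was under KO placebo livers (-0.81, adjusted p = 0.0059). Sox9, a progenitor transcription factor, gave 1.09, adjusted p = 0.0094, and Krt7, of bile ducts alone, 0.01, adjusted p = 0.98 at 1 of 5 KO SAMe and 2 of 8 WT arrays detected. The other 8 of the 12 markers were not called, and the median change of the list was 0.13. The summed intensity of the 12 markers was 2587 to 3318 across KO SAMe arrays, 3154 to 4463 across KO placebo arrays and 1692 to 2563 across WT arrays. Such a sum is led by the brightest probes and is no measure of the number of bile duct cells. In bulk tissue, more cells of a type, more RNA per cell and expression of these genes by hepatocytes cannot be told apart.

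Of 20 measured oncofetal and tumour markers 5 were higher and none lower (25.0%), in every fit with 1 array left out. The share called over all genes was 17.6%. Spink1, a trypsin inhibitor raised in liver tumours and also a pancreatic acinar gene, was at 6.74, 7.03, 7.82, 7.88 and 5.84 in KO SAMe livers and between 4.25 and 4.74 with a median of 4.41 in WT livers, at least 5.72-fold higher without overlap (adjusted p = 1.2e-05). Anxa2, an annexin of the cell membrane, was at 9.04, 10.25, 9.50, 9.53 and 8.49 in KO SAMe livers and between 7.86 and 8.27 with a median of 7.94 in WT livers, 2.56-fold higher (adjusted p = 4.3e-05). Robo1, a guidance receptor gene, rose 2.38-fold (adjusted p = 1.8e-05). Cdkn1a, the cell cycle inhibitor p21, was detected on all KO SAMe and no WT arrays and was at least 1.56-fold higher (adjusted p = 0.0015), with 0.12 by its other probe. Gpc3, another tumour marker, gave -0.02, adjusted p = 0.94 and was detected on 1 of 5 KO SAMe and 4 of 8 WT arrays. Extracellular matrix genes had 6 of 34 higher and none lower (17.6%), against 20 higher in KO placebo compared with WT livers. Over all genes 9.49% were higher and 8.09% lower in KO SAMe than in WT livers. In KO placebo against WT livers these shares were 19.8% and 20.4%. Leaving out 1 array left 3 called without KO SAMe replicate 2, and 2 were higher where arrays were scaled to the median of all probes. Col4a1, a basement membrane collagen, gave 0.72, adjusted p = 0.0035 against WT and -0.77, adjusted p = 0.0037 against KO placebo livers, and Col1a1, the main collagen of scars, -0.00, adjusted p = 0.99 with no KO SAMe array detecting it.

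Other large changes had no list of their own. Aqp4, a water channel, was at 7.57, 7.79, 7.56, 7.08 and 8.09 in KO SAMe livers and between 4.25 and 5.03 with a median of 4.64 in WT livers, 7.81-fold higher without overlap (adjusted p = 9.9e-12). Parp16, an ADP-ribosyltransferase of the endoplasmic reticulum, rose 6.03-fold (adjusted p = 2.2e-06), Tceal8 4.96-fold (adjusted p = 5.9e-09), Pcp4l1 5.35-fold (adjusted p = 0.00011, with 1.53 in log2 by its other probe) and Ildr2 4.08-fold (adjusted p = 2.1e-08). Aatk, a kinase gene, was 3.99-fold lower (adjusted p = 5.9e-05). None of these 6 was called between KO SAMe and KO placebo livers, with log2 changes between -0.54 for Aatk and 0.73 for Pcp4l1.

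Markers of other liver cells were mostly lower or not called. Of 23 measured macrophage markers 2 were lower and none higher (8.70%), near the 8.09% of all genes that were lower, and leaving out 1 array left 1 called without KO SAMe replicate 2, KO SAMe replicate 4 or KO SAMe replicate 5. Cd9, a tetraspanin of macrophages and other cells, was at 5.63, 5.33, 4.98, 5.27 and 5.55 in KO SAMe livers and between 6.12 and 7.33 with a median of 6.72 in WT livers, 2.66-fold lower without overlap (adjusted p = 2.5e-06), while the defining Kupffer cell genes Clec4f (-0.29, adjusted p = 0.18) and Adgre1 (-0.26, adjusted p = 0.23, detected on 1 of 5 KO SAMe and 3 of 8 WT arrays) were not called. Of 20 endothelial markers 5 were lower and none higher (25.0%), and leaving out 1 array left 3 called without KO SAMe replicate 1, WT placebo replicate 2, WT placebo replicate 3, WT placebo replicate 6 or WT placebo replicate 7, 1 called without KO SAMe replicate 2 and 2 called without KO SAMe replicate 3. Mrc1, the mannose receptor of sinusoidal cells, gave -0.70, adjusted p = 0.017, a call lost with an adjusted p of 0.068 without KO SAMe replicate 2. The summed intensity of the endothelial markers was 1984 to 3075 in KO SAMe, 2487 to 3763 in KO placebo and 2833 to 3813 in WT arrays, and that of the macrophage markers 1529 to 2243, 1894 to 4062 and 1599 to 3935 in the same order. Of 6 measured erythrocyte genes 1 was higher and 2 lower (50%), and Hbb-bt, a hemoglobin gene with near-identical relatives that its probe may also read, was at 11.81, 10.77, 12.12, 12.28 and 10.13 in KO SAMe livers and 11.84 to 13.25 in WT livers (-1.09, adjusted p = 0.031, and -0.98, -2.34 and -1.44 by its other probes), and its call was lost with an adjusted p of 0.11 without KO SAMe replicate 2, 0.11 without KO SAMe replicate 5, 0.053 without WT placebo replicate 2, 0.061 without WT placebo replicate 3 and 0.059 without WT placebo replicate 6. The part of these cells and of blood in the results above was not tested. Of 28 hepatocyte identity genes 2 were higher and 1 lower (10.7%), and their summed intensity was 92428 to 97883 in KO SAMe, 93480 to 100363 in KO placebo and 83907 to 96884 in WT arrays.

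Some lists were close to, or under, the 17.6% of all genes called in either direction, and are named for that. The ribosomal, proteasome and proliferation lists held lower calls only, at shares above the 8.09% of all genes that were lower. In KO placebo against WT livers 19.8% of all genes were higher and 20.4% lower. Oxidative phosphorylation subunits had 4 of 66 measured genes higher and 2 lower (9.09%), against 5 higher and 37 lower in KO placebo compared with WT livers, and leaving out 1 array left 3 called without KO SAMe replicate 2 or KO SAMe replicate 3. Scaling to the median of all probes gave 1 higher and 5 lower. Cox7a1, a muscle-type subunit of cytochrome oxidase, was lower (-1.06, adjusted p = 7.3e-05). Ribosomal proteins had 9 of 47 lower and none higher (19.1%), against 26 lower and 3 higher in KO placebo compared with WT livers. Leaving out 1 array left 5 called without KO SAMe replicate 2, and 15 were lower under each median scaling. Rpl13a was at 7.19, 7.05, 6.98, 7.06 and 7.08 in KO SAMe livers and between 7.51 and 8.82 with a median of 8.04 in WT livers (-1.07, adjusted p = 0.00012). Proteasome genes had 6 of 34 lower and none higher (17.6%), of which Psmb5 was the largest and lies near Mat1a, and 8 and 11 were lower under the median scalings. Proliferation genes had 3 of 17 lower (17.6%), with H2az1, a histone variant, at -1.17, adjusted p = 0.00012. The growth hormone axis had 1 of 15 called, and leaving out 1 array left 3 called without KO SAMe replicate 1, KO SAMe replicate 4 or WT placebo replicate 8 and 2 called without WT placebo replicate 2 or WT placebo replicate 4. That gene was Igfals, a carrier of IGF1, at 0.55, adjusted p = 0.0053, while Ghr, the receptor, gave -0.12, adjusted p = 0.42, with -0.49 by its other probe, and Igf1 0.13, adjusted p = 0.44 against WT and 0.50, adjusted p = 0.0039 against KO placebo livers. Enzymes of DNA and histone methylation had 2 of 30 higher and 1 lower (10.0%), and leaving out 1 array left 6 called without KO SAMe replicate 1 and 5 called without WT placebo replicate 4 or WT placebo replicate 5. Dnmt3b, a DNA methyltransferase, was detected on 5 of 5 KO SAMe and 3 of 8 WT arrays and was at least 1.29-fold higher (adjusted p = 0.0071).

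**Figure D5:**
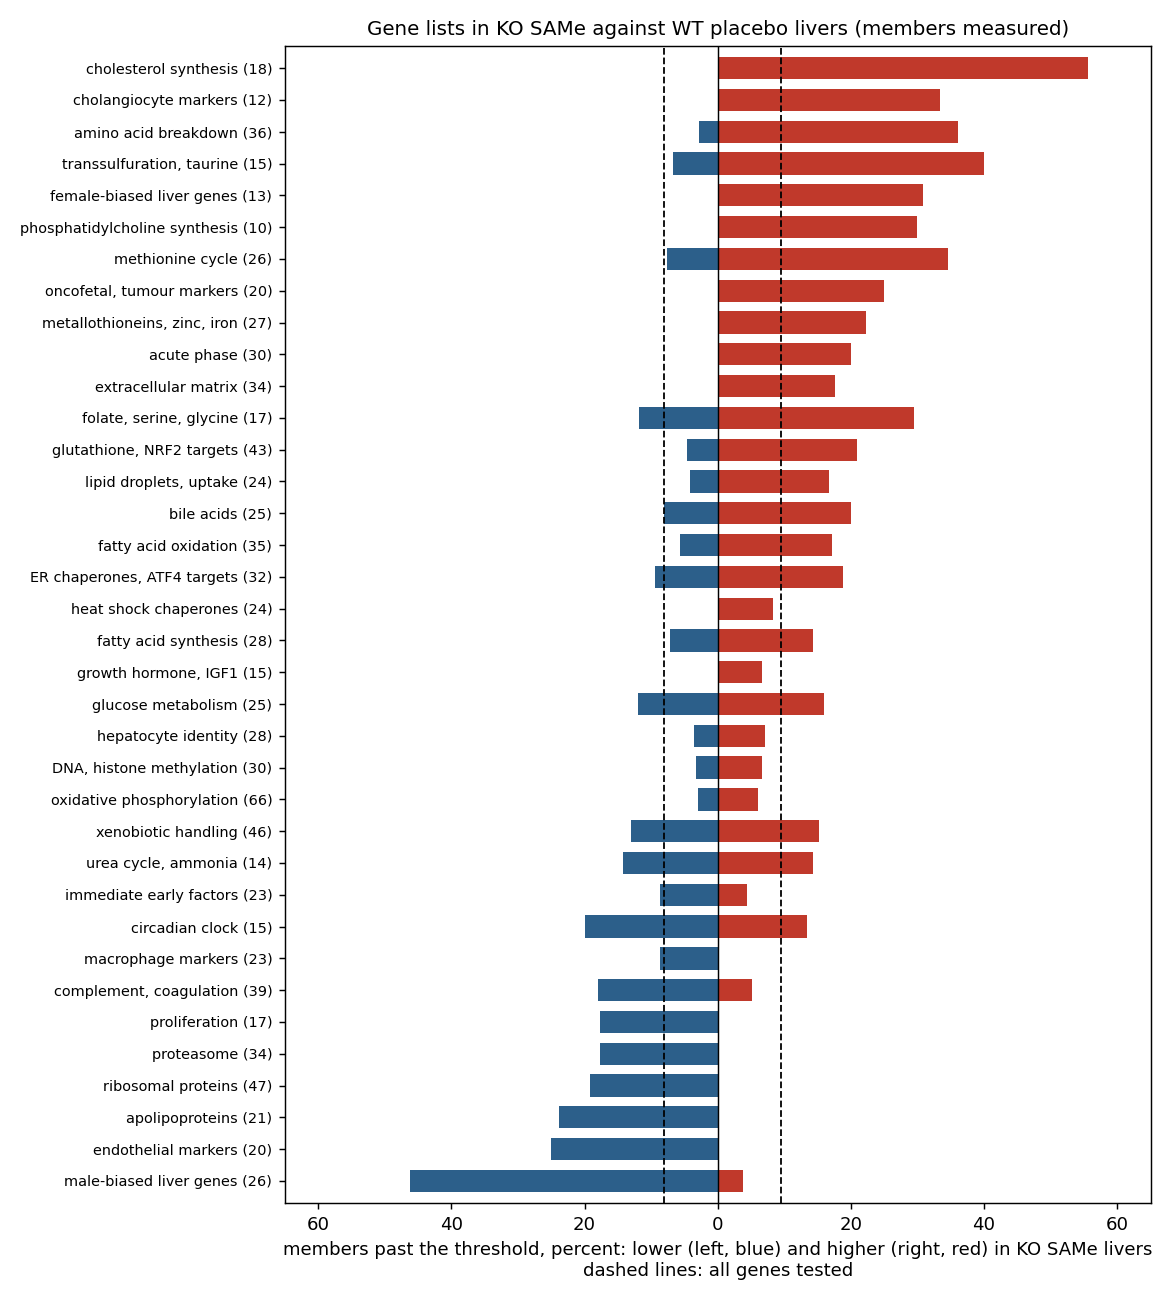
Percentage of the measured members of 36 gene lists that were lower (blue, left) and higher (red, right) in KO SAMe than in WT placebo livers at an adjusted p under 0.05, with the number measured in parentheses. Dashed lines mark 8.09% lower and 9.49% higher over all genes tested; cholesterol synthesis reaches furthest to the right and male-biased genes furthest to the left.

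Between KO SAMe and KO placebo livers 2000 genes were called, 1167 higher and 833 lower, but 1003 where the background set was a block in the fit and 76 among low-background arrays, where 2 KO placebo arrays remain. The number of differences from KO placebo livers thus moves with the background set, and its part in the single genes named above was not tested. Between KO SAMe and WT livers 1931 genes were called with that block and 1612 among low-background arrays. Leaving out KO SAMe replicate 2 left 1213 called, and 1000 were called among arrays of letter K, 2 KO SAMe against 8 WT. Among the genes named above, the call against WT was lost in Pemt, Got2, Mccc2, Kcmf1, Tfcp2l1 and Igfals where arrays were scaled to the median of all probes, and in Dbp, Hamp2, Orm2, Angptl8, Sox9, Sort1, Mrc1 and Hbb-bt with no filter on detection. Among arrays of letter K it was also lost in Pemt, Srebf2, Mccc2, Kcmf1, Atxn7, Pes1, Ccdc58, Ttc1, Orm2, Cebpg, Elovl1, F11 and Hbb-bt, beside those named with it above. Under scaling to the median of all probes further lists gave counts over 1.5 times apart from those above, with 1 higher for phosphatidylcholine, 3 higher for folate, 3 higher for metals, none for heat shock, 1 higher and 2 lower for the clock, 2 higher and 2 lower for glucose, none for the growth hormone axis, 1 lower for hepatocyte identity, 1 lower for macrophages and 3 lower for endothelium. Among arrays of letter K, transsulfuration had 2 higher and 1 lower, amino acid breakdown 7 higher, metals 3 higher, acute phase 2 higher and 1 lower, and bile acids 3 higher and 1 lower.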

How the data were processed

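Total liver RNA was amplified, labelled with biotin and read on Illumina BeadChips, per the labels' protocols. The authors deposited raw bead intensities for 45281 probes on 19 arrays, neither background corrected nor normalized, each with a detection p-value. A second deposited table of the authors holds log2 values of 17592 probes, which recomputing from the raw table showed to be log2 of the raw signal after quantile normalization, and these served as an alternative. No source used here names the scanner software.

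From the raw table, limma 3.58.1 in R 4.3.3 corrected background by normexp, using the detection p-values, with an offset of 16, followed by quantile normalization and log2. Quantile normalization hides any shift of most genes in 1 direction. The filter asked for a detection p under 0.05 on 5 or more arrays, which 14295 probes passed. The platform annotation named genes, and 14715 of its gene identifiers were found in RefSeq's table for GRCm38.p6. Each gene was read by its brightest probe, which gave 8529 named genes and 2302 unnamed probes, and where more probes passed their changes are given beside the genes called. A group-means model over all 19 arrays was fitted, with the empirical Bayes test and Benjamini-Hochberg adjustment. A gene detected on under 50% of a group's arrays has only a bound there, and its fold is given as a minimum, against the lowest signal detected on each array or the probe's own, whichever was higher. The number of arrays limits the precision. The scripts were tested on simulated data.

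Genes named are Mat1a, the 14 genes that rose most and the 14 that fell most among those called with no overlap, up to 6 members per list with the largest moderated t, others by role, and 8 that lay above, below or between both placebo groups in each direction. A few further genes, such as C4a, C4b, Cebpg, Fbxo34 and Hbb-bt, were chosen by role or position after their values were seen. The 44 gene lists and the genes were chosen with earlier results of these data known. Group, letter and background set come from the labels and the raw medians. Alternatives were other background corrections, scalings, filters, probe rules, array weights, the background set as a block or the low set alone, the letter, and leaving out each array. Promoters, 250 bases before to 50 after the start, came from the RefSeq table.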

Additional observations from a re-analysis of the deposited data

Results flagged for a closer look

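Among the 178 genes named in the text, single arrays lay far from the rest of their group, by a gap over the group's range above Dixon's critical value, in 28 of 534 groups of arrays looked at, and chance alone would give 27 at 1 in 20. No cause of these was tested. WT placebo replicate 1, the WT array with high raw background, stood apart most often, 6 times, as the highest of its group in Parp16 at 6.49, Mup5 at 10.68, Gpt at 10.24 and Hsph1 at 7.61, and as the lowest in Cbs at 6.87 and Cyp8b1 at 9.46.

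Within the KO SAMe group, replicate 4 was the lowest in Serpina1e at 6.86, against 9.60 in the next array, and in Asns at 4.29, against 6.37 in the next. It was the highest in A1bg, a female-biased plasma protein gene, at 7.22, against 4.51 in the next array. Replicate 2 was the highest in Igf1 at 11.51 and Gpc3 at 5.03 and the lowest in Cps1 at 10.58. Replicate 5 was the highest in Mt2 at 6.44, against 4.91 in the next array, and in Dnajc12 at 7.36. Replicate 3 was the highest in Tob1 at 7.16, and replicate 1 the lowest in Aldh4a1 at 11.65.

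In the KO placebo group, replicate 2 was the highest in 3 acute phase genes, Lcn2 at 10.05, Saa1 at 13.15 and Orm2 at 10.95. Hsd3b5 was at 8.35 in replicate 3, against 5.03 in the next array, and all 6 arrays of that group detected it. Replicate 5 was the highest in Cebpe at 4.50 and the lowest in Ces3a at 6.42, replicate 4 the highest in Msmo1 at 10.08, and replicate 1 the lowest in Scd1 at 9.79. Among other WT arrays, replicate 2 was the highest in Lcn2 at 6.12, replicate 4 the lowest in Dmgdh at 4.75 and the highest in Cdkn1a at 4.34, and replicate 6 the highest in Tk1 at 8.21.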

How the results depend on the processing

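The count of 1904 genes between KO SAMe and WT livers was 1189 with no filter on detection and 1000 among arrays with letter K, and between 1213 and 2064 when 1 array was left out. Under the other 11 alternatives it was between 1361 and 1963. The count of 193 genes with at least 2-fold differences was 89 with an offset of 50 and 70 with the authors' deposited log2 values, both of which compress low signals, and 300 among arrays with letter K and 313 with the letter as a term. Leaving out 1 array gave 174 to 224. The 32 called neighbours of Mat1a were 20 among arrays with letter K and 23 to 33 when 1 array was left out. The 2000 genes between KO SAMe and KO placebo livers were 1003 with a block for the background set and 76 in the low-background set, and the 4359 between KO placebo and WT livers were 1979 in the low-background set. The cause of these moves was not tested, beyond the fewer arrays of the reduced sets.

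Of the 143 named genes that were called, 138 were called in all 13 fits without 1 array and 111 under all other alternatives, and none of the 143 changed direction in any. Some named genes that were not called, such as Gnmt, Ahcy and Per2, lay on either side of 0. The number of lists of 44 whose count moved by over 1.5 times was 25 among arrays with letter K, 21 without the filter, 18 with the letter as a term, 18 and 7 under the median scalings, 17 without KO SAMe replicate 2 and 13 without KO SAMe replicate 3. The background of the raw signal limits what is seen of dim genes, since 25.5% to 31.8% of probes were detected. No paired analysis was made, since the labels give no matching of animals between groups.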

Other observations

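The lists given here had at most 23 measured members each, and some of their genes are described above. Over all genes 17.6% were called in either direction. The share was under that for pericentral, antigen presentation and immediate early genes. It was above that for the other lists here, from 25% for lymphocyte markers to 50% for erythrocyte genes. Of 15 adipocyte markers listed, 7 were measured and 2 were higher, Lpl among them. Pericentral hepatocyte genes had 2 of 18 higher and none lower, and periportal ones 3 of 18 higher and 2 lower. Antigen presentation genes had 2 of 16 higher, against 7 higher in KO placebo compared with WT livers, where 19.8% of all genes were higher. Immediate early genes had 1 of 23 higher and 2 lower. Lymphocyte markers had 4 and neutrophil markers 3 measured members, with 1 lower in each. Pancreatic acinar markers had 1 of 5 higher, which was Spink1, and 1 lower. Erythrocyte genes had 1 of 6 higher and 2 lower, and urea and ammonia genes 2 of 14 higher and 2 lower.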
